A study of Mus musculus with 18 samples.

Results

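The Slc25 genes encode the mitochondrial carriers, and they were chosen by symbol as every gene named Slc25a followed by a number. There were 46 of them in each table, among 17513 genes in heart and 17242 in liver. The family was picked with earlier results of these data in view, in which Slc25a28 had stood out between Apex and OR. The values of Slc25a28 in comparisons with Apex or OR are therefore given as a description, with no p and no call. The counts of calls in heart leave it out, except in the closing section, which gives counts with and without it. RNA came from endothelial cells of adult male mice at homeostasis. The 12 heart libraries were wild type, 3 from each of the regions labelled Apex, LV, VS and OR. The liver mice carried Ki67-CrexER; Cdh5-DreER; R26-RL-tdT, and their endothelial cells gave 3 tdTomato-positive libraries and 3 tdTomato-negative ones. Both liver groups carried these alleles, in which 1 recombinase is driven by Ki67 and the other by Cdh5. The labels give no batch and do not say whether libraries of a group came from separate animals, so p-values measure only the spread between these libraries.

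Mitochondrial carriers span the inner mitochondrial membrane and exchange nucleotides, phosphate, organic acids, amino acids and cofactors between the cytosol and the matrix. ADP/ATP carriers export the ATP made by oxidative phosphorylation, the phosphate carrier brings in its substrate, and the mitoferrins bring in iron for heme and iron-sulfur clusters. Endothelial cells draw much of their ATP from glycolysis, and their mitochondria also serve biosynthesis and signalling.

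The libraries held 21590400 to 27720154 counts in heart and 23715769 to 26538590 in liver. Transcripts of other cell types were present. The summed level of 15 cardiomyocyte genes was 2792 to 3330 TPM (a level scaled for gene length and depth) in Apex, 3258 to 3507 in LV, 1902 to 6265 in VS and 3432 to 4573 in OR. The summed level of 10 endothelial genes was 6013 to 7271 TPM in Apex, 6294 to 6705 in LV, 5922 to 7657 in VS and 5583 to 5982 in OR. In TPM, OR thus lay below Apex and LV without overlap, and the shift of TPM against OR over all genes is given below. The part of this difference in the comparisons with OR was not tested. Within VS, libraries 1, 2 and 3 held 1902, 6265 and 4093 TPM of cardiomyocyte genes, so library 2 was high on this measure as library 1 was low. Over all tested genes library 1 lay farther from its mates. The chi-square between its counts and those of libraries 2 and 3, over the degrees of freedom, was 195 and 121, against 30.9 between libraries 2 and 3. In liver, tdTomato-negative library 3 held 3931 TPM over 12 Kupffer cell and other leukocyte genes, against 44.1 and 128 TPM in tdTomato-negative libraries 1 and 2, while the tdTomato-positive libraries held 892 to 1364 TPM. The summed level of 8 erythroid genes was 19197 to 30851 TPM in tdTomato-positive libraries and 817, 957 and 14681 TPM in tdTomato-negative libraries 1, 2 and 3. Results that rest on VS library 1 or tdTomato-negative library 3 are given below with and without it.

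The promoters of Slc25a28 and Slc25a25 are shown because the results below turn on these genes. They are the 250 bases before an annotated RefSeq start (GRCm38.p6, minus strand), with GC boxes (GGGCGG, either strand) and the cyclic AMP response element (CRE, TGACGTCA, either strand) in capitals. Slc25a28 lies on chromosome 19 and its window at chr19:43674882-43675131. The annotated gene spans chr19:43663801-43675006, so part of the window lies inside it. Slc25a25 lies on chromosome 2 and has 3 annotated starts, of which the first, at chr2:32451471-32451720, and the third, at chr2:32424067-32424316, are shown. That gene spans chr2:32414487-32451470, so the third window lies inside it.
Slc25a28: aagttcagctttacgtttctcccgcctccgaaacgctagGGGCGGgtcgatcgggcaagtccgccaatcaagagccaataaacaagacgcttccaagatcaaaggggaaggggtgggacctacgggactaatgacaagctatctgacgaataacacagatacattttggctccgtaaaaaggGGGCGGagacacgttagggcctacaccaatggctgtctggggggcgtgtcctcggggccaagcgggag
Slc25a25 start 1: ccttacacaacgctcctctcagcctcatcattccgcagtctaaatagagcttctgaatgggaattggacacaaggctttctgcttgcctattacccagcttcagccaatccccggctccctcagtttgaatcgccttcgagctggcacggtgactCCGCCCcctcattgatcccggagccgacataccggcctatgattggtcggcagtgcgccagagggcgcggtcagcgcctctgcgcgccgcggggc
Slc25a25 start 3: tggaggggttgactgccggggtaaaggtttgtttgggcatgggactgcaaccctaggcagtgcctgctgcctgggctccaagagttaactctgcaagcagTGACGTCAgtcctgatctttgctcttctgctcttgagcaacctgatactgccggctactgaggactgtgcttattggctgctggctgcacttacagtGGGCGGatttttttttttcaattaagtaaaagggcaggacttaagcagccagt
The Slc25a28 window held 2 GC boxes and no CRE. The first Slc25a25 window held 1 GC box and no CRE, and the third held 1 CRE and 1 GC box. The second Slc25a25 window, at chr2:32431152-32431401 and not shown, held no GC box and no CRE. RefSeq windows were matched for 35 of the 46 members, 45 windows in all. A GC box was in 71.1% of these windows, against 32.7% of 32851 windows of the same length over all genes. The windows of members had a median GC content of 57.2%, against 52.4% over all, and a median of 12 CpG sites against 6. CCAAT was in 46.7% of member windows and 33.8% of all windows. The CRE was in 4.44% (Slc25a25 and Slc25a36) against 1.55%. These matches describe letters in the windows and were not tied to any factor.

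A few carriers made up most of the family's RNA. Slc25a5 and Slc25a4, the ADP/ATP carriers ANT2 and ANT1, and Slc25a3, the phosphate carrier, together held 62.1% to 72.4% of the family's TPM in each heart library and 56.7% to 65.1% in each liver library. In heart, Slc25a5 averaged 736 ± 58.1 TPM, Slc25a4 703 ± 102 and Slc25a3 631 ± 49.3 (SD, n = 12). Neighbours in this order did not differ beyond their spread, and the Slc25a5 mean exceeded those of 98.7% of genes in the heart table. The next in order were Slc25a39, needed for glutathione import into mitochondria, at 249 ± 31.4 TPM and Slc25a25, an ATP-magnesium/phosphate carrier, at 126 ± 44.6 TPM. In liver, Slc25a5 averaged 705 ± 92.2 TPM, Slc25a3 468 ± 30.7, Slc25a4 301 ± 37.0, Slc25a39 242 ± 30.1 and Slc25a11, the oxoglutarate/malate carrier, 116 ± 9.68 (SD, n = 6). The whole family held 0.285% to 0.323% of all TPM in heart and 0.232% to 0.256% in liver.

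Across the tables, which were processed separately and were not tested against each other, some members stood at different ranks. Slc25a28, mitoferrin-2, averaged 95.7 ± 8.92 TPM in liver and 29.6 ± 6.36 TPM in heart. Slc25a37, mitoferrin-1, the iron importer of developing red cells, averaged 16.5 ± 3.34 TPM in liver and 5.37 ± 1.94 TPM in heart. Slc25a25 went the other way, at 15.1 ± 11.2 TPM in liver and 126 TPM in heart. Slc25a35, a carrier of unassigned substrate, averaged 17.9 TPM in liver and 5.29 TPM in heart, and Slc25a30, an uncoupling-protein-like carrier, 8.78 TPM in liver and 24.5 TPM in heart.

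**Figure D1:**
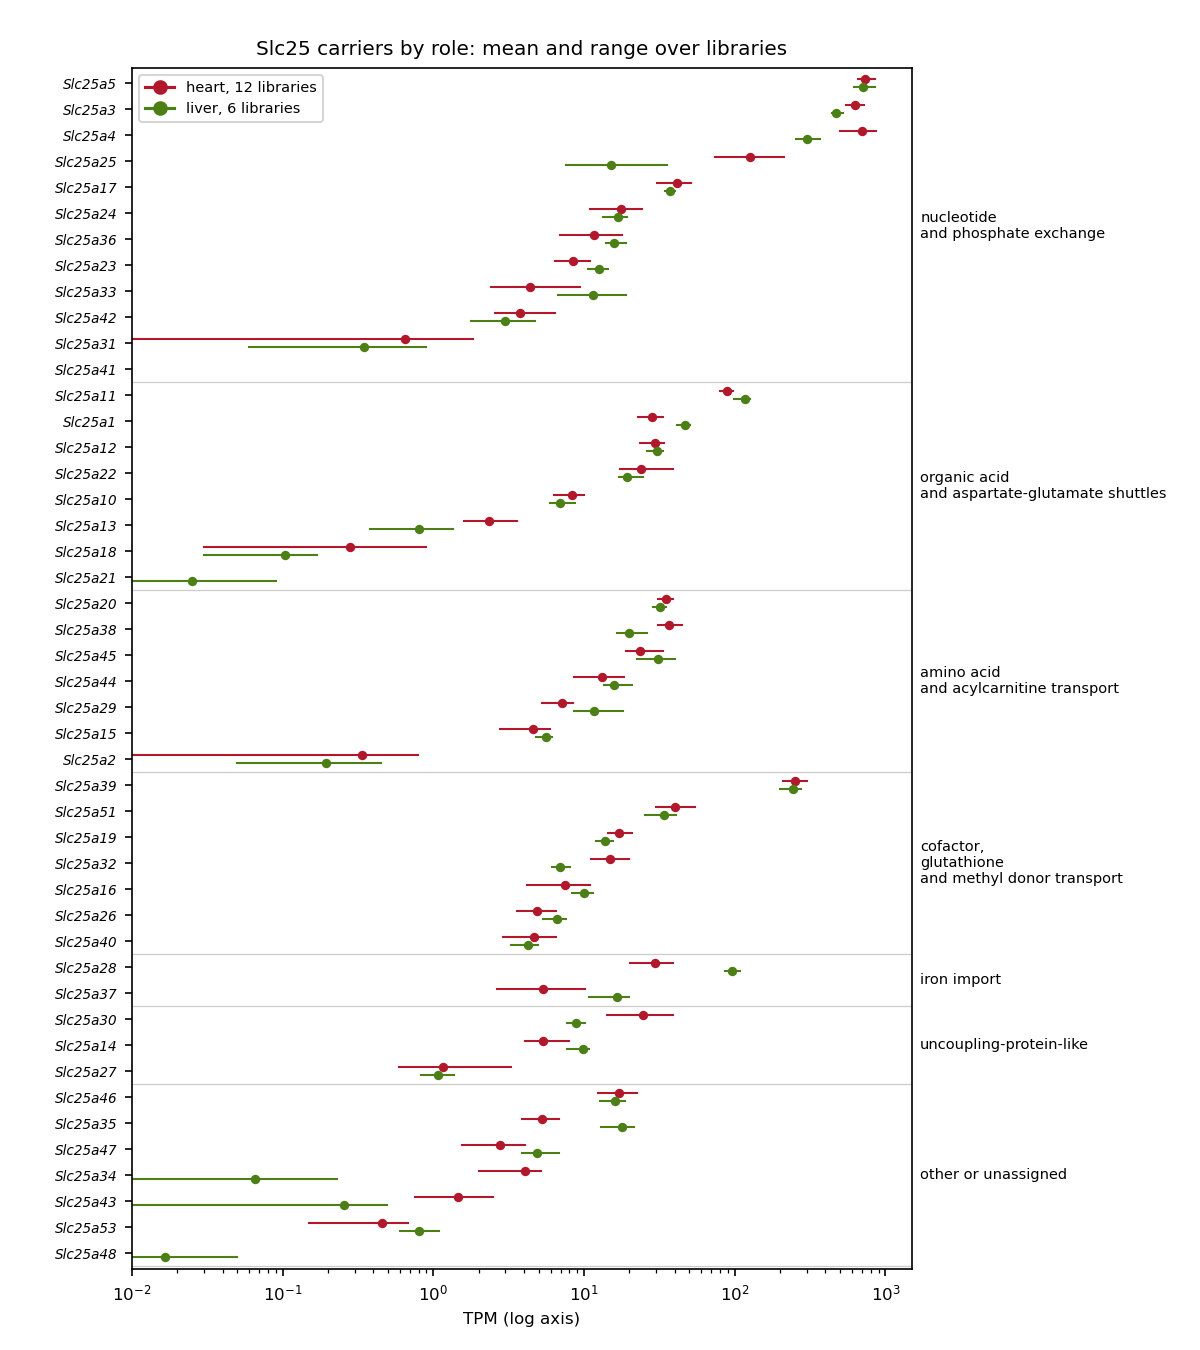
Level of each Slc25 gene in TPM on a log axis, grouped by the role of the carrier; points are means and lines the lowest to highest library, for 12 heart libraries (red) and 6 liver libraries (green), with means below 0.01 TPM not drawn. Slc25a5, Slc25a4 and Slc25a3 lie at the right in both tissues, with heart means of 631 to 736 TPM, while Slc25a41, at 1 count in heart and 0 in liver, is not drawn in either tissue.

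Between the extremes lay carriers of most substrate classes. Among organic acid carriers, Slc25a1, the citrate carrier that feeds cytosolic acetyl-CoA, averaged 28.3 TPM in heart and 46.6 in liver. Of the aspartate/glutamate carriers of the malate-aspartate shuttle, Slc25a12 (aralar) was at 29.6 TPM in heart and 30.6 in liver, whereas Slc25a13 (citrin), the form abundant in hepatocytes, was at 2.33 and 0.803 TPM. Slc25a20, which moves acylcarnitines for fatty acid oxidation, was at 35.0 TPM in heart and 31.9 in liver. Slc25a38, which brings in glycine for heme synthesis, was at 36.6 and 19.8 TPM, and Slc25a51, the NAD carrier, at 40.1 and 33.8 TPM. Counts were too low for the tests in 3 heart members, Slc25a21, Slc25a41 and Slc25a48, which had 2, 1 and 0 counts over all 12 libraries. In liver 7 members were below the count filter: Slc25a2, Slc25a18, Slc25a21, Slc25a34, Slc25a41, Slc25a43 and Slc25a48. The filter left 43 of 46 members and 13542 genes in heart, and 39 of 46 members and 13115 genes in liver.

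Across the 4 heart regions Slc25a28 was lowest in Apex and highest in OR, while Slc25a37 had its highest mean in LV. Levels between libraries are given as CPM, counts scaled for depth and composition by the TMM method, because the median TPM ratio of all tested genes was shifted by 0.24, 0.22 and 0.19 on the log2 scale in Apex, LV and VS against OR. Slc25a28 had 13.1, 13.0 and 16.2 CPM in Apex. LV libraries had 21.05, 18.1 and 18.4 CPM, VS libraries 19.98, 28.8 and 19.2, and OR libraries 30.2, 27.1 and 25.9. All 3 Apex libraries were below every library of the other regions. LV and OR did not overlap either, while VS overlapped both of them. The means were 14.1 ± 1.84 CPM in Apex, 19.2 ± 1.61 CPM in LV, 22.6 ± 5.33 CPM in VS, then 27.7 ± 2.22 CPM in OR (SD, n = 3 each). The log2 fold changes were -0.45 ± 0.18 (SE) in Apex against LV, -0.68 ± 0.18 in Apex against VS, and -0.98 ± 0.18 in Apex against OR, where the level was 1.97-fold lower in Apex. They were -0.53 ± 0.18 in LV against OR and -0.29 ± 0.17 in VS against OR. In deposited TPM Apex again did not overlap LV, VS or OR, and LV and OR did overlap. In bulk RNA, fewer cells of a type and less RNA per cell cannot be told apart. Erythroid genes, whose cells need mitochondrial iron for heme, summed to 6632 to 13751 TPM in Apex, 8784 to 13510 in LV, 6816 to 24931 in VS and 16328 to 18557 in OR, and their part in the Slc25a28 values was not tested.

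Slc25a37 had 10.1, 13.4 and 11.9 CPM in Apex, 15.8, 15.2 and 14.3 in LV, 18.7, 11.2 and 6.84 in VS. OR libraries had 10.8, 11.97 and 11.6 CPM. LV was above Apex and OR with no overlap, and VS spanned all other regions. None of these differences passed edgeR's quasi-likelihood test, with adjusted p = 0.957 for Apex against LV (log2 fold change -0.35 ± 0.27) and 0.55 for LV against OR (0.40 ± 0.27). The Slc25a37 gene overlaps 4 other gene models on both strands, and which strand was counted is not stated in the labels. The difference in pattern between the mitoferrins was not tested.

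**Figure D2:**
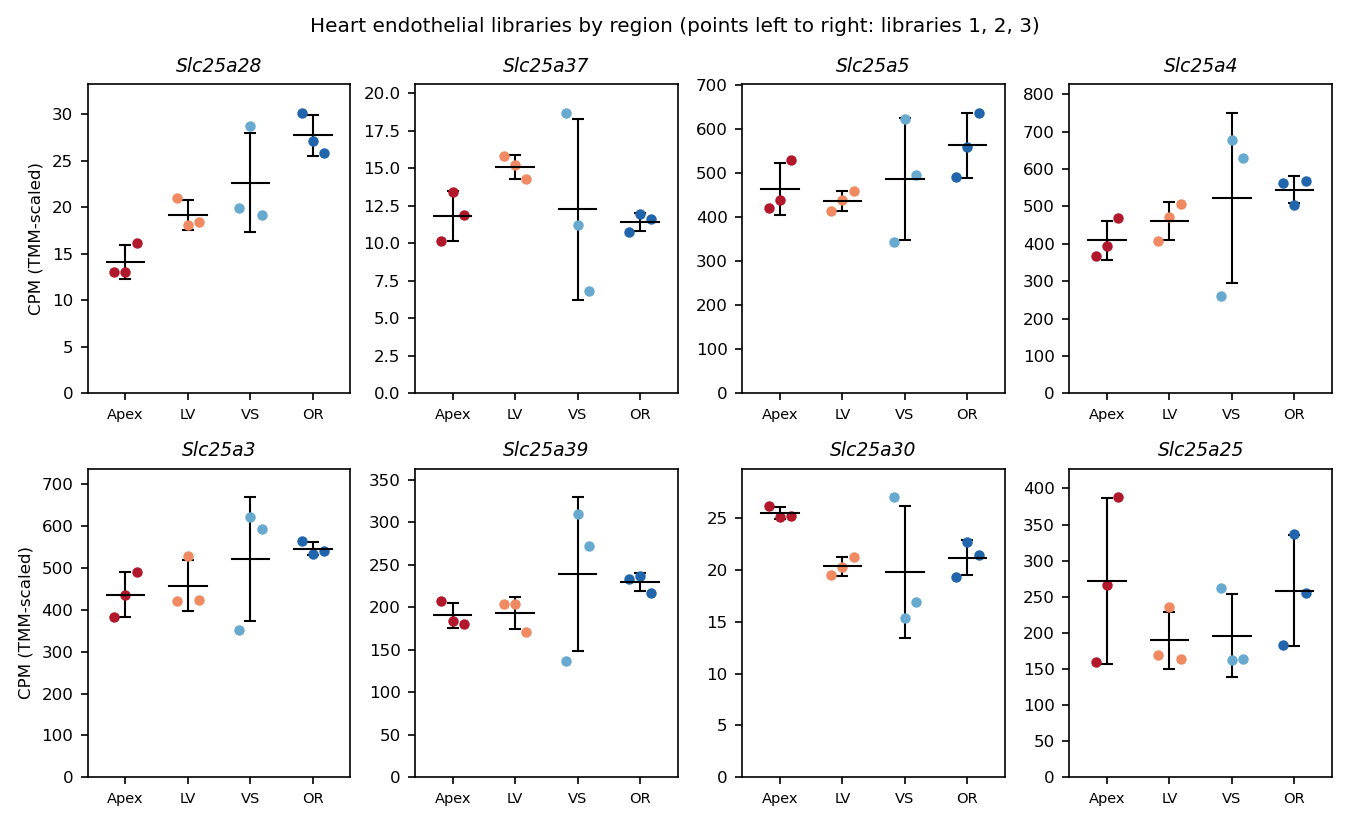
TMM-scaled CPM of 8 Slc25 genes in the 12 heart libraries by region, Apex, LV, VS and OR from left to right; points are libraries, horizontal lines means and bars 1 SD of 3 libraries. Slc25a28 is lowest in Apex, at 13.0 to 16.2 CPM, and highest in OR, at 25.9 to 30.2 CPM, while VS libraries spread widely for Slc25a4, Slc25a5, Slc25a3 and Slc25a39.

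Slc25a28 aside, none of the 42 members past the count filter passed the adjusted threshold of 0.05 in edgeR's model of all 12 heart libraries, whether over the 4 regions or in any of the 6 pairs, and 0% of all genes did. At an unadjusted p under 0.05 there were 0 of them over the 4 regions, against 8% of all genes. By pair there was 1 in Apex against LV, Slc25a40 (5.38% of all genes), and there were 2 in Apex against VS, Slc25a10 and Slc25a32 (7.47%). There were 0 in Apex against OR (12.1%), LV against VS (2.91%), LV against OR (11.5%) and VS against OR (7.03%). DESeq2 called 0 of the 42 over the regions (0.643% of all genes), in Apex against LV (0.177%), Apex against VS (0.14%), Apex against OR (0.586%), LV against VS (0.133%), LV against OR (0.377%) and VS against OR (0.17%). Voom with sample quality weights called 6 over the regions (21.5% of all genes), 8 in Apex against VS (13.8%) and 1, Slc25a4, in Apex against OR (13.2%). It called 0 in Apex against LV (0.281%), LV against VS (0.00738%), LV against OR (2.81%) and VS against OR (0.0665%).

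With edgeR fitted on the 6 libraries of a pair alone, 0 members other than Slc25a28 were called in Apex against OR (7.3% of all genes), LV against OR (3.53%), Apex against LV (0.152%), Apex against VS, LV against VS and VS against OR (0% each). The ADP/ATP carrier Slc25a4 was nearest in Apex against OR, with 367, 393 and 468 CPM in Apex and 563, 505 and 569 CPM in OR. It was lower in every Apex library, and its log2 fold change of -0.40 ± 0.11 in the pair fit had an edgeR adjusted p = 0.054. Without Apex library 3, the Apex library with the most Slc25a4, that fit called Slc25a4. This omission was made after the data were seen, and the share of all genes called without that library is not given here. In LV against OR the ADP/ATP carrier Slc25a5 was nearest, with 413, 438 and 459 CPM in LV and 491, 560 and 637 CPM in OR (-0.36 ± 0.12, edgeR adjusted p = 0.0958). In deposited TPM the groups overlapped for both genes.

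Across the family the fold changes between regions were small. The median log2 fold change of the 43 members was 0.02 in Apex against LV, -0.06 in Apex against VS, -0.05 in Apex against OR, -0.12 in LV against VS, -0.06 in LV against OR and -0.02 in VS against OR. The median of all genes was within 0.01 of 0 in each pair. In LV against VS 31 members were below 0 and 12 above, where 50.5% of all genes were above 0. That pair holds VS library 1, and the split was not tested. Members with a log2 fold change beyond 0.5 either way numbered 3, 5, 3, 2, 6 and 4 in that order of pairs, against 11.5% to 16.4% of all genes. They included Slc25a28 in Apex against VS, Apex against OR and LV against OR. Among them were also Slc25a2, Slc25a18 and Slc25a31, the testis ADP/ATP carrier, whose heart means were 0.338, 0.281 and 0.644 TPM.

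**Figure D3:**
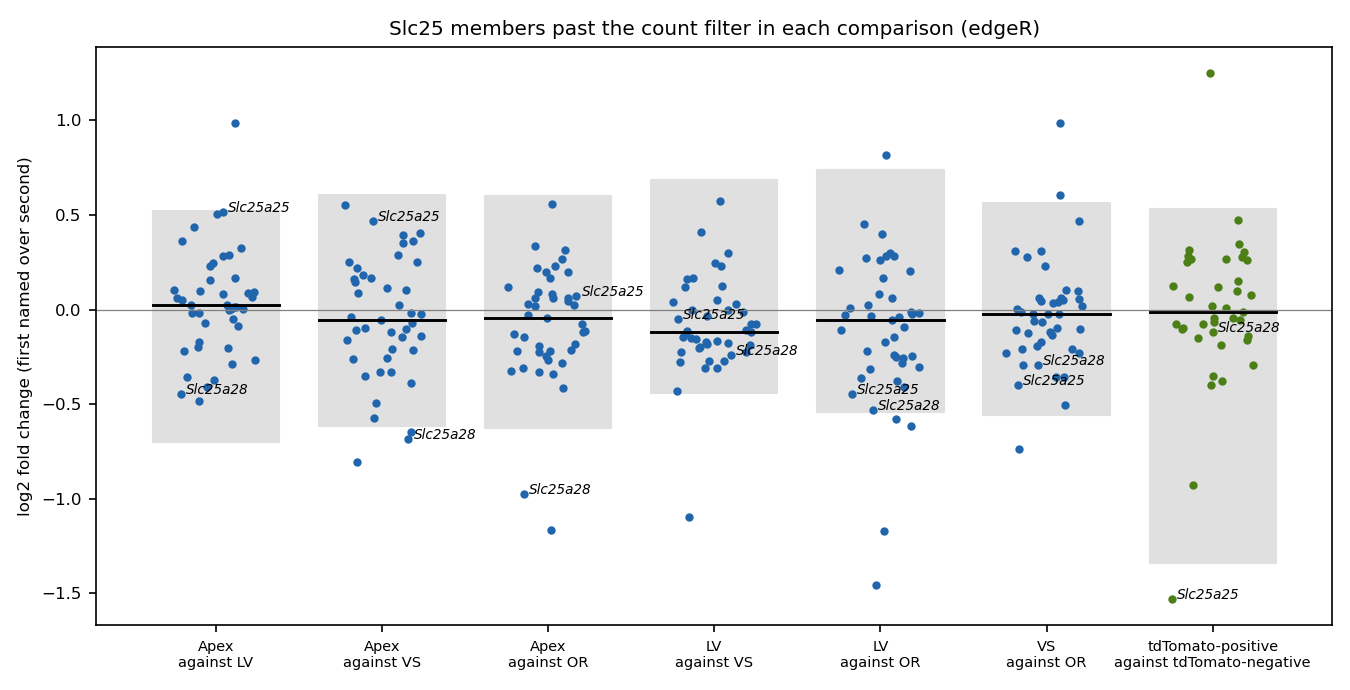
Log2 fold change of each Slc25 member past the count filter (points, spread sideways at random) in the 6 heart pairs (blue) and the liver comparison (green), first named group over second; black lines are member medians and grey boxes the 5th to 95th percentile of all genes tested. Slc25a28 lies at -0.98 in Apex against OR and Slc25a25 at -1.53 in tdTomato-positive against tdTomato-negative, both outside the grey box, while the medians lie near 0.

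Groups without overlap in CPM were counted as a further description, with Slc25a28 included. That gene is among the lower members in Apex against LV, VS and OR and in LV against OR, comparisons that bear on how the family was chosen. In Apex against LV 4 of 43 members were higher in every Apex library (7.35% of all genes) and 3 lower (8.8%). In Apex against VS 1 was higher (6.79%) and 4 lower (3.78%). In Apex against OR 5 were higher (13.3%) and 7 lower (15.6%). In LV against VS 3 were higher (3.4%) and 2 lower (2.22%), in LV against OR 4 higher (12.8%) and 8 lower (14.6%), and in VS against OR 2 higher (4.68%) and 0 lower (6.68%). Apex against OR set Slc25a13, Slc25a36, Slc25a32, Slc25a30 and Slc25a22 on the higher side. On the lower side were Slc25a28, Slc25a3, Slc25a4, Slc25a26, Slc25a35, Slc25a39 and Slc25a1. These were 11.6% and 16.3% of members, near the shares of all genes, so the names are a listing only. The balance of directions depended on the scale. In deposited TPM, Apex against OR had 12 members higher (31% of all genes) and 1 lower (4.64%). On that scale LV against OR had 12 higher (29.1%) and 1 lower (3.18%). The 3 pairs with OR share the same OR libraries, so their counts are not independent of one another.

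By role, the members described next were named by a fixed rule, the 5 with the smallest p in each pair, whatever their values. Among nucleotide carriers, Slc25a36, a pyrimidine nucleotide carrier, had 38.3, 30.4 and 30.8 CPM in Apex and 26.0, 27.2 and 26.8 in OR (log2 fold change 0.32 ± 0.17, edgeR adjusted p = 0.465). Slc25a42, which carries coenzyme A, was 0.45 ± 0.25 in LV against OR and 0.47 ± 0.25 in VS against OR, with no overlap in either. Of the aspartate/glutamate carriers, Slc25a13 had 5.57, 4.46 and 4.43 CPM in Apex and 3.12, 3.51 and 3.18 in OR (0.56 ± 0.30). Slc25a10, the dicarboxylate carrier, was -0.49 ± 0.19 in Apex against VS and 0.28 ± 0.19 in VS against OR. Slc25a11 was -0.31 ± 0.18 in LV against OR, with 76.1 to 81.1 CPM in LV and 84.0 to 108 CPM in OR. None of these passed edgeR's test in the model of all 12 libraries.

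Among amino acid carriers, Slc25a44, a branched-chain amino acid carrier, was 0.31 ± 0.16 in VS against OR and -0.23 ± 0.16 in LV against VS. Slc25a15, the ornithine carrier, was 0.37 ± 0.22 in Apex against LV, where LV library 1 held 4.89 CPM and the other LV libraries 8.83 and 9.09. Slc25a45 was -0.20 ± 0.13 in LV against VS. Of cofactor carriers, Slc25a32, a folate and flavin carrier, was 0.35 ± 0.15 in Apex against VS, and Slc25a40, the paralogue of Slc25a39, was 0.44 ± 0.21 in Apex against LV and -0.38 ± 0.21 in LV against OR. Slc25a40 levels were 7.64, 8.68 and 7.08 CPM in Apex, 5.11, 6.45 and 5.71 in LV, and 7.15, 7.29 and 8.04 in OR, so LV was below both. Slc25a30 was even within Apex, at 26.1, 25.03 and 25.2 CPM, and lay at 19.5, 20.3 and 21.2 in LV (0.32 ± 0.19). Other small differences were those of Slc25a24, a calcium-regulated ATP-magnesium/phosphate carrier (0.25 ± 0.15 in Apex against VS and 0.23 ± 0.15 in LV against VS), its relative Slc25a23 (-0.27 ± 0.18 in LV against VS), Slc25a47 (0.57 ± 0.36 in LV against VS) and the peroxisomal carrier Slc25a17 (-0.19 ± 0.13 in VS against OR). In the model of all 12 libraries the edgeR adjusted p was at least 0.45 for every member other than Slc25a28 in all 6 pairs.

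Slc25a25 varied widely within regions. It had 159, 267 and 389 CPM in Apex, 170, 236 and 164 in LV, 262, 163 and 164 in VS. OR libraries had 184, 338 and 255 CPM. The spread between libraries in Apex, VS and OR was wider than that between the region means, and all regions overlapped (Apex against LV 0.52 ± 0.31, edgeR adjusted p = 0.942). The gene overlaps Naif1 on the opposite strand.

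VS library 1 decided much of what could be called in VS. Slc25a4 had 261 CPM in VS library 1 and 679 and 629 in libraries 2 and 3, Slc25a39 had 136 against 309 and 272, and Slc25a3 had 351 against 621 and 592. In the other direction Slc25a30 had 27.0 CPM in VS library 1 and 15.3 and 16.9 in the others. VS library 1 was the lowest of the 12 heart libraries in 12 of 43 members, against 20.1% of all genes, and the highest in 6, against 14.7%. VS library 2 was the lowest in 7, against 18.6%, and the highest in 9, against 16.7%. The median SD of members on the log2 scale was 0.34 in VS and 0.14 to 0.18 in the other regions, and that of all genes was 0.31 in VS. VS libraries 1, 2 and 3 held 7684, 11823 and 11121 summed TPM over 26 respiratory chain and ATP synthase genes.

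**Figure D4:**
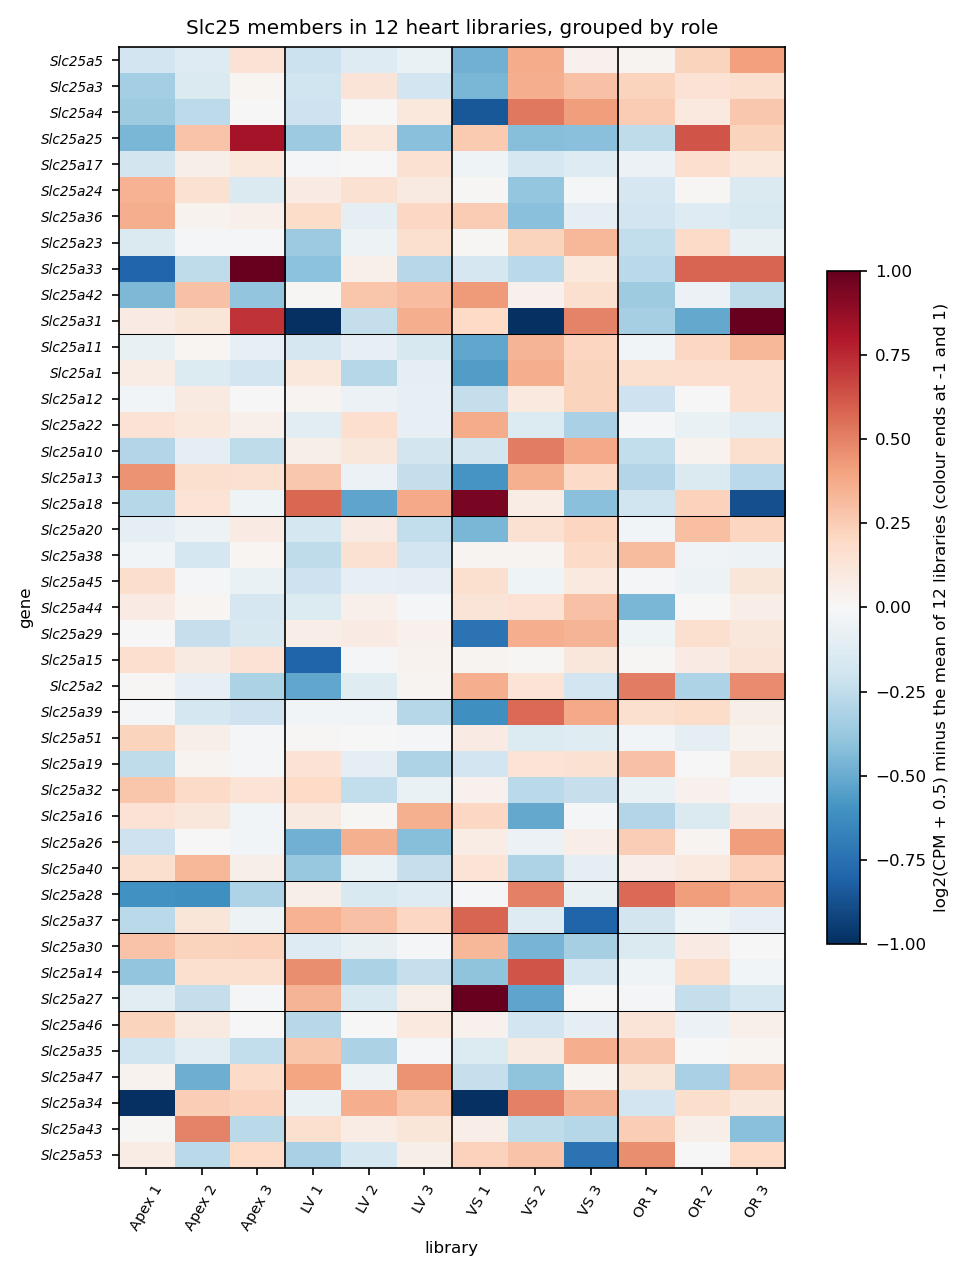
Log2(CPM + 0.5) of the 43 Slc25 genes past the count filter in the 12 heart libraries, each minus its own mean over the libraries (blue below, red above, colours ending at -1 and 1), with genes grouped by role. Slc25a28 is blue in all 3 Apex columns and red in all 3 OR columns, and VS library 1 is blue for Slc25a5, Slc25a3, Slc25a4, Slc25a11, Slc25a29 and Slc25a39, where VS library 2 is red.

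Without VS library 1, the edgeR model called 3 of these 42 members over the regions (10.8% of all genes): Slc25a39, Slc25a4 and Slc25a30. In Apex against VS it called 6 (11.7%). Slc25a4 (log2 fold change -0.68 ± 0.13, edgeR adjusted p = 0.00451), Slc25a39 (-0.61 ± 0.12), Slc25a10 (-0.68 ± 0.16) and Slc25a3 (-0.48 ± 0.13) were lower in Apex. Slc25a30 (0.66 ± 0.14) and Slc25a32 (0.46 ± 0.14) were higher in Apex. In LV against VS it called 3 (4.45%), with Slc25a39 (-0.60 ± 0.12), Slc25a4 (-0.51 ± 0.13) and Slc25a11 (-0.43 ± 0.12) lower in LV. In Apex against OR it called 0 (6.25%). In that Apex against VS fit 18 of 26 oxidative phosphorylation genes and 10 of 15 cardiomyocyte genes were also called lower in Apex, and the part of cardiomyocyte RNA in the carriers' differences was not tested.

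Genes that work with the carriers were set beside them, from lists written for their function. In edgeR's model of all 12 libraries none of their members passed in any pair. In the fit on Apex and OR alone, 4 of 16 genes of the import path that brings carriers into the inner membrane were called lower in Apex, against 4.26% of all genes, with a list median of -0.36 against 0.01 over all genes. They were Timm13 (-0.61), Timm10b (-0.56), Tomm20 (-0.38) and Tomm6 (-0.34). Of 14 other metabolite gates, 3 were lower in Apex: Mpc2, a pyruvate carrier subunit (-0.60), Smdt1, a subunit of the calcium uniporter (-0.59), and Tspo (-0.57), and the list median was -0.21. Of 17 measured genes of mitochondrial iron use, which take up the iron that mitoferrins carry, 4 were lower in Apex, with a list median of -0.22: Fdx2 (-0.63), Isca2 (-0.62), Cisd1 (-0.58) and Iscu (-0.39). Of 14 genes of cell iron handling 0 were called, with a list median of 0.10.

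Of 26 oxidative phosphorylation genes 16 were called lower in Apex, against the same 4.26% of all genes, with a list median of -0.47, among them Uqcrq (-0.66), Ndufs6 (-0.64), Cox7b (-0.64) and Atp5o (-0.63). None of 12 regulators of mitochondrial biogenesis passed (list median 0.00), and neither did Ucp2, Ucp3, Mtch1 or Mtch2, carrier superfamily members with other symbols. The median of the Slc25 members in this fit was -0.02. In the same fit 6 of 15 cardiomyocyte genes were called lower, with a median of -0.55 over that list, and their part in these differences was not tested. In LV against OR the pair fit called 0 of 16 import genes, 2 of 14 gates (Smdt1 and Tspo), 0 of 17 genes of mitochondrial iron use, 6 of 26 oxidative phosphorylation genes and 2 of 14 genes of cell iron handling, all lower in LV, against 1.73% of all genes called lower. The genes of cell iron handling were Hmox1, the heme-degrading enzyme (-0.68), and Ftl1, the ferritin light chain (-0.54). In the same fit 5 of 15 cardiomyocyte and 4 of 6 measured erythroid genes were lower in LV.

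In liver, Slc25a25 was the member with the largest difference between tdTomato-positive and tdTomato-negative cells. It had 15.5, 15.4 and 15.6 CPM in tdTomato-positive libraries and 71.0, 43.3 and 19.8 CPM in tdTomato-negative libraries. The tdTomato-positive libraries were nearly equal and lay below all tdTomato-negative ones, which spread widely. The log2 fold change was -1.53 ± 0.44, 2.89-fold lower in tdTomato-positive cells, with an edgeR adjusted p = 0.276. DESeq2 gave -1.55 ± 0.41 (adjusted p = 0.0083) and voom with quality weights -1.72 ± 0.27 (adjusted p = 0.0136). Hepatocyte genes summed to 401 to 499 TPM in tdTomato-positive and 604 to 1065 TPM in tdTomato-negative libraries, and fibroblast genes to 18.5 to 53.1 and 17.4 to 138 TPM. The 10 endothelial genes summed to 15931 to 17510 TPM in tdTomato-positive and 8316 to 14362 TPM in tdTomato-negative libraries, without overlap. The part of these differences in cell content in the Slc25a25 difference was not tested.

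EdgeR called 0 of 39 members and 0% of all genes in this comparison, and 4 members had an unadjusted p under 0.05, against 14.3% of all genes. DESeq2 called 1 member (5.29% of all genes) and voom 5 (19.8%). The other 3 members under an unadjusted 0.05 were Slc25a36, with 47.5, 47.2 and 52.0 CPM in tdTomato-positive and 42.1, 40.3 and 38.5 in tdTomato-negative libraries (0.28 ± 0.09, edgeR adjusted p = 0.276), Slc25a22, a glutamate carrier (-0.29 ± 0.10), and Slc25a46, an outer membrane protein of mitochondrial dynamics (0.27 ± 0.11). Slc25a13 had 1.05, 1.31 and 0.709 CPM in tdTomato-positive and 2.45, 1.43 and 1.95 in tdTomato-negative libraries (-0.93 ± 0.39). Slc25a39 had 250, 260 and 220 CPM in tdTomato-positive and 198, 185 and 217 in tdTomato-negative libraries (0.28 ± 0.12). In all, 5 members were higher in every tdTomato-positive library (10.7% of all genes) and 4 lower (9.91%). The 39 members had a median log2 fold change of -0.02, against 0.00 over all genes, and 3 were beyond 0.5 either way, against 19.4% of all genes.

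**Figure D5:**
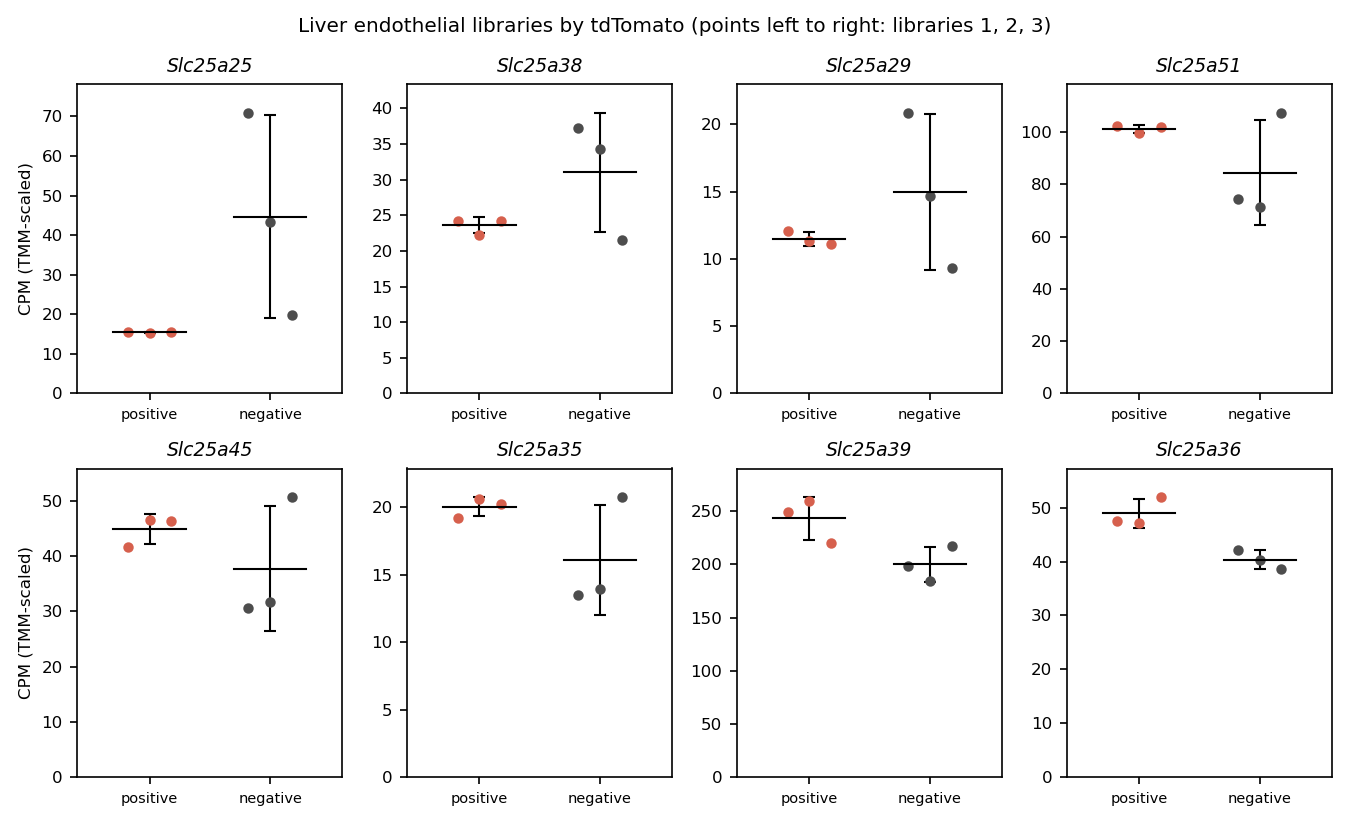
TMM-scaled CPM of 8 Slc25 genes in the liver libraries, tdTomato-positive left and tdTomato-negative right; points are libraries, horizontal lines means and bars 1 SD of 3 libraries. Slc25a25 lies at 15.4 to 15.6 CPM in tdTomato-positive libraries and 19.8 to 71.0 in tdTomato-negative ones, and for Slc25a38, Slc25a29, Slc25a51, Slc25a45 and Slc25a35 the third tdTomato-negative library lies on the other side of the tdTomato-positive ones from its mates.

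The abundant carriers and the mitoferrins overlapped between the liver groups. Slc25a5 had 513, 471 and 424 CPM in tdTomato-positive and 608, 547 and 416 in tdTomato-negative libraries, Slc25a4 averaged 216 ± 5.44 and 223 ± 48.8 CPM, and Slc25a3 385 ± 11.3 and 404 ± 48.6 CPM (SD, n = 3 each, tdTomato-positive and then tdTomato-negative). Slc25a28 had 66.5, 71.0 and 71.8 CPM in tdTomato-positive and 81.2, 67.5 and 78.7 in tdTomato-negative libraries (log2 fold change -0.12 ± 0.10, edgeR adjusted p = 0.605). Slc25a37 had 49.9, 41.9 and 51.5 CPM in tdTomato-positive and 28.7, 41.8 and 45.5 in tdTomato-negative libraries (0.31 ± 0.19, edgeR adjusted p = 0.485). Each of these groups overlapped its counterpart.

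Without tdTomato-negative library 3, 7 of 39 members passed in liver, against 31.5% of all genes. Slc25a25 (-1.90 ± 0.20, edgeR adjusted p = 0.00106), Slc25a38, the glycine carrier (-0.61 ± 0.10), and Slc25a29, a carrier of basic amino acids (-0.64 ± 0.17), were lower in tdTomato-positive cells. Slc25a51 (0.46 ± 0.08), Slc25a45 (0.51 ± 0.09), Slc25a35 (0.53 ± 0.12) and Slc25a39 (0.33 ± 0.10) were higher. For Slc25a38 the levels were 24.2, 22.3 and 24.2 CPM in tdTomato-positive libraries and 37.3, 34.4 and, in the omitted library, 21.6 CPM in tdTomato-negative ones. For Slc25a51 they were 102, 99.5 and 102 CPM against 74.5, 71.3 and 107 CPM. In the same fit 10 of 12 Kupffer cell and leukocyte genes and 6 of 7 erythroid genes were higher in tdTomato-positive cells, as were 4 of 10 endothelial genes. Of 12 hepatocyte genes 9 were lower, as were 5 of 8 fibroblast and 4 of 8 pericyte genes, and their part in the carriers' differences was not tested. With all 6 libraries edgeR called 0 genes of the partner lists. Voom called 19.8% of all genes in either direction, and DESeq2 5.29%. Of the partners, voom called 2 of 16 import genes and 2 of 14 metabolite gates lower. Also lower were 1 of 17 genes of mitochondrial iron use and 1 of 26 oxidative phosphorylation genes. Of 14 genes of cell iron handling 1 was higher. Voom further called 1 of 11 biogenesis regulators higher and 1 lower, and 1 of 3 other superfamily members higher. DESeq2 called 1 biogenesis regulator higher and none of the other partner genes. The counts in edgeR without library 3 stand against 31.5% of all genes called in either direction. There 4 of 16 import genes were lower, and 4 of 17 genes of mitochondrial iron use were lower and 1 higher. Of 14 metabolite gates 3 were lower and 2 higher, and 3 of 26 oxidative phosphorylation genes were lower.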

How the data were processed

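Per the labels, poly(A) RNA of endothelial cells was copied from oligo(dT) primers into full-length cDNA, amplified by PCR and sequenced. The submitters' processing notes name mm10. The aligner, counting program, annotation and counting strand are not given in the sources used here. Per the file headers, the authors deposited TPM and expected counts per library, 1 table per tissue. All 36 value columns were matched by name, with 0 left over, and the region written OZ in the columns is OR in the titles. Between 80.8% and 83.5% of heart and 80.3% and 80.8% of liver values were exactly whole, zeros included, and counts were rounded.

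The test was that of edgeR 4.0.16, run in R 4.3.3 (default low-count filter, TMM, robust quasi-likelihood F test), with all 12 heart libraries in 1 model and the 6 liver libraries in another, with Benjamini-Hochberg adjustment across every tested gene, at 0.05. Each log2 fold change sets the group named first over the other, and SE is the fold change over the square root of F. Tissues were never tested against each other. The alternatives were another scaling, no filter, DESeq2 1.42.0, voom with sample quality weights (limma 3.58.1), a replicate block, the pair alone, and each library left out. Leaving out a library within the pair fits was added after the data were seen. The code was checked on simulated data.

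The members and lists were chosen with earlier results of these data known. Given in full are the 5 members highest in TPM per tissue, the 5 with the smallest p per comparison, members past the threshold, and Slc25a28, Slc25a37, Slc25a4, Slc25a5 and Slc25a3. From each list up to 4 genes are named, those past the threshold with the largest change. Positions and promoters are from RefSeq (GRCm38.p6) and overlaps from GENCODE M21. Levels between genes are TPM and levels between libraries are CPM.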

Additional observations from a re-analysis of the deposited data

How the results depend on the processing

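The count of Slc25 members called was 0 in every comparison with edgeR's model of all libraries, with either scaling, without the low-count filter and with the replicate number as a block, where 0 members were called in all 8 comparisons. Same-numbered heart libraries deviated together with correlations of -0.08 to 0.33 (median 0.045), against -0.23 to 0.23 (median -0.042) for other-numbered ones. In liver the ranges were -0.27 to -0.03 and -0.17 to 0.28. The ranges overlapped in both tissues, so these values do not settle whether the numbers pair samples. The main model did not pair them. The counts that follow include Slc25a28 in heart, whose part in them bears on the values that led to the family and is not a result. Counts with Slc25a28 left out are given after them. DESeq2 called 1 member over the 4 regions, 1 in Apex against OR and 1 in liver; voom called 7, 2 and 5 there, 9 in Apex against VS and 1 in LV against OR. The fit on the pair alone called 1 in Apex against OR and 1 in LV against OR. With Slc25a28 left out, DESeq2 and the fit on the pair alone called 0 in each of these heart comparisons. Voom then called 6 over the regions, 8 in Apex against VS, 1 in Apex against OR and 0 in LV against OR. The shares of all genes called by DESeq2, voom and the pair fits are given with the results above. Leaving out 1 library gave 0 to 4 members over the regions, 0 to 7 in Apex against VS, 0 to 1 in Apex against OR, 0 to 3 in LV against VS and 0 to 7 in liver, and every count above 0 came without VS library 1 or, in liver, without tdTomato-negative library 3. With Slc25a28 left out, the fit without VS library 1 called 3 over the regions and 6 in Apex against VS. It called 0 in Apex against OR and 3 in LV against VS. Of all genes that fit called 10.8% over the regions, 11.7% in Apex against VS, 6.25% in Apex against OR and 4.45% in LV against VS. Without tdTomato-negative library 3 the share in liver was 31.5%. Pair fits with 1 library left out were a choice made after seeing the data. Their counts were 0 to 4 in Apex against VS and 0 to 2 in Apex against OR. With Slc25a28 left out these were 0 to 4 and 0 to 1. The shares of all genes called in those reduced pair fits are not given here, so the counts are not a result about the members. The cause of these shifts was not tested. Leaving Slc25a28 out where Apex or OR entered, none of the 30 named fold changes changed sign under any alternative run: 641 values stayed on their side of the threshold and 13 passed it only under an alternative. The named genes were picked for small p in these libraries, which the alternatives reuse, so steady signs were largely set by that choice. Depth was similar between libraries, and 3 libraries a group limit the precision. Members under 1 TPM, such as Slc25a2, Slc25a18 and Slc25a31, rest on few counts.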
